A study of Arabidopsis thaliana with 7 samples.

Results

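Transcript levels of 3 flavonoid genes were followed in Arabidopsis thaliana flowers on 7 single-colour Affymetrix arrays: DFR, UGT78D2 and the glycosyltransferase gene AT1G06000. The genes were taken by symbol or locus, and each was read by 1 probe set, so that 3 of 13286 genes named on a probe set of their own are described. Flowers of stages 1 to 14 came from plants grown for 6 weeks in long days, and every group held 1 array. The groups were arf6 arf8 double mutants with indole-3-acetic acid (IAA, the main natural auxin) and untreated, arf6/arf6 ARF8/arf8 plants with IAA and untreated, and Columbia wild type with IAA, with a mock spray and untreated. ARF6 and ARF8 encode auxin response factors, transcription factors through which auxin alters gene activity. The labels name arf6/arf6 ARF8/arf8, whereas the series text makes ARF6 the heterozygous gene. The dose of IAA is 10 µM by the labels but 10 mM by the series text, and neither point could be settled here. IAA and mock sprays both contained 1% methanol and 0.05% Tween-20 and preceded harvest by 30 minutes. Untreated flowers received no spray and mock was used in Columbia only, so any comparison of IAA with untreated flowers also holds the effect of spraying.

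Flavonoids are plant phenolics that serve in flowers as pigments, ultraviolet screens and components of the pollen surface. Their common skeleton is made by chalcone synthase and chalcone isomerase, and the pathway then branches to flavonols, anthocyanins and proanthocyanidins. DFR encodes dihydroflavonol 4-reductase, the first enzyme committed to anthocyanins and proanthocyanidins. UGT78D2 encodes a glucosyltransferase that adds glucose at the 3-O position of flavonols and anthocyanins. The platform annotation and the RefSeq table give AT1G06000 by its locus code, with no other symbol.

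The array medians lay between 240.95 and 261.5, and the mock array had a raised low end, with a 10th percentile of 26.9 against 9.4 to 17.89 on the other arrays. Probe sets for ARF6 and ARF8 were not named here, so the genotypes were not checked on the mutated genes, and of 5 floral organ identity genes 0 were named. The arrays are bulk samples, in which fewer cells of a type and less RNA per cell cannot be told apart. Because no group has a repeat array, p-values come from an additive model of genotype and treatment fitted with limma over 13021 probe sets. They rest on how well the pairs of arrays agree and on a spread borrowed from all probe sets. They do not measure variation between repeat samples. A log2 difference of 1 is a 2-fold change, intensities are in the arbitrary units of the file, and a gene is called when its adjusted p is under 0.05.

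AT1G06000 fell 2.06-fold with IAA against untreated flowers, and 2.08-fold in arf6 arf8 against Columbia. DFR varied over a 4.27-fold range with no difference that passed the test. UGT78D2 stayed within a 1.42-fold range. With IAA 1 of the 3 genes was called (AT1G06000, lower), against 0.346% of all probe sets called lower. In arf6 arf8 against Columbia 1 of the 3 was called (AT1G06000 again, lower), against 7.96% of all probe sets. In arf6/arf6 ARF8/arf8 against Columbia, mock against untreated and IAA against mock 0 of the 3 were called, where 2.76%, 0.753% and 0.177% of all probe sets were. The 3 genes were chosen with earlier results of these data known, so these shares do not test whether flavonoid genes were called more often.

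**Figure D1:**
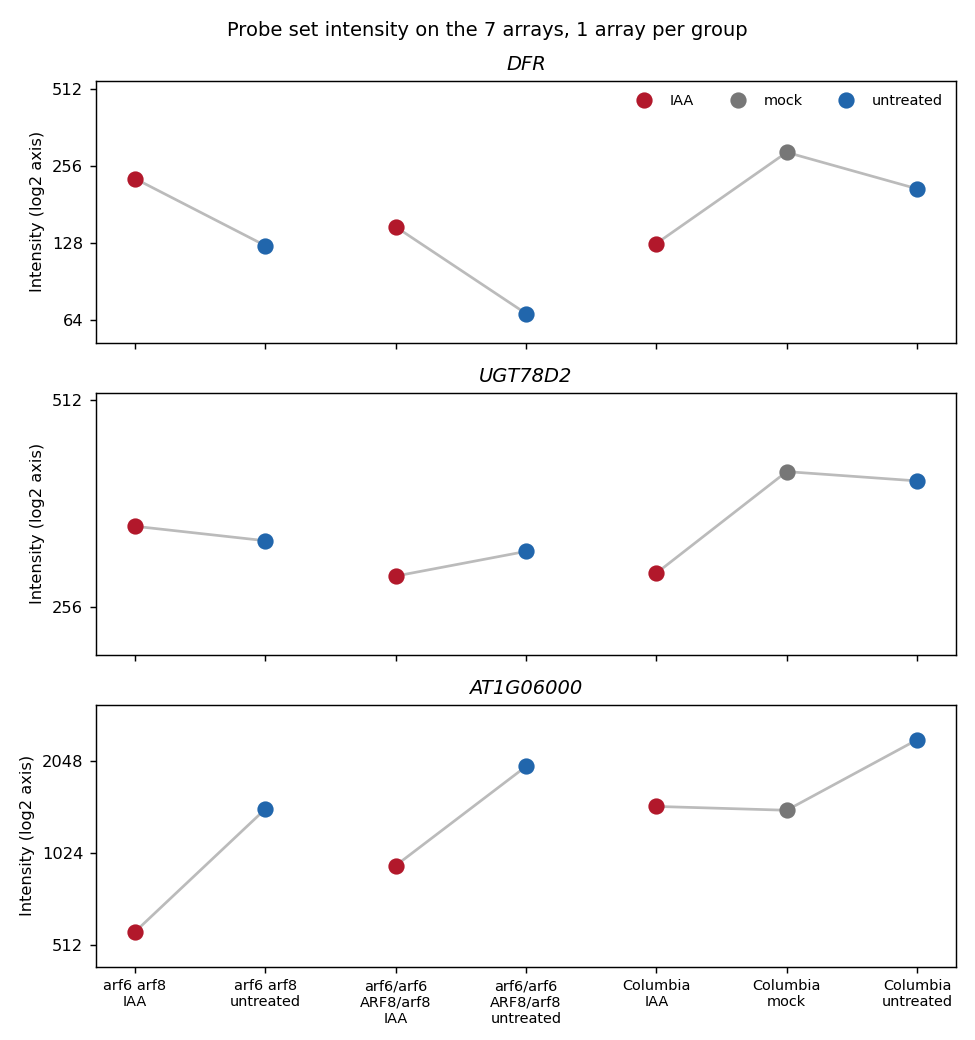
Intensity of the 3 probe sets (log2 axis, arbitrary units) on each of the 7 arrays, 1 point per array, coloured by treatment, with grey lines joining arrays of one genotype. AT1G06000 ran between 563.4 and 2394.3 and was below its untreated array on each sprayed array, whereas DFR was above its untreated array in both mutants with IAA and below it in Columbia with IAA.

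DFR was a dim probe set, and 1.27% of the tested probe sets had a lower median intensity. It read 228.1 with IAA and 124.8 untreated in arf6 arf8. In arf6/arf6 ARF8/arf8 flowers it read 147.8 with IAA and 67.7 untreated, the last being close to the floor of 64.9 below which values were not distinguished. Columbia flowers gave 127.2 with IAA, 289.1 with mock and 208.2 untreated. IAA arrays were thus above their untreated arrays in both mutants, by log2 ratios of 0.87 and 1.13, and below in Columbia, by a log2 ratio of -0.71. The mock array, the one with the raised low end, gave the highest DFR reading, and whether the 2 are linked was not tested.

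The fitted IAA difference of DFR was 0.43 ± 0.33 on the log2 scale (SE, limma, adjusted p = 0.560). Its residual standard deviation around the additive model was 0.704 on the log2 scale, larger than that of 99.8% of the probe sets, where the median was 0.136. Ordered by level, 1 of the 6 steps between neighbouring arrays exceeded this residual spread, the step that separated the untreated arf6/arf6 ARF8/arf8 array from the rest. Genotype values did not pass the test either: 0.05 ± 0.40 in arf6 arf8 and -0.70 ± 0.40 in arf6/arf6 ARF8/arf8 against Columbia (SE, limma, adjusted p = 0.944 and 0.371). Among untreated flowers DFR was lower in both mutants, by log2 ratios of -0.74 in arf6 arf8 and -1.62 in arf6/arf6 ARF8/arf8. Among IAA flowers the same ratios were 0.84 and 0.22. The genotype values turned on single Columbia arrays. Without untreated Columbia they were 0.91 ± 0.22 in arf6 arf8 and 0.15 ± 0.22 in arf6/arf6 ARF8/arf8, and without IAA-treated Columbia -0.80 ± 0.22 and -1.56 ± 0.22 (SE, limma, adjusted p = 0.0223, 0.798, 0.0448 and 0.00552). Raising the floor to the 40th percentile brought the IAA difference of DFR to 0.04 and its arf6/arf6 ARF8/arf8 value to -0.20. Without the IAA-treated arf6 arf8 array the arf6 arf8 value was -0.28 ± 0.59 (SE, limma, adjusted p = 0.797).

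Mock against untreated gave DFR a fitted difference of 1.04 ± 0.51, and IAA against mock -0.61 ± 0.51 (SE, limma, adjusted p = 0.365 and 0.799). Both values rest on the mock array, through which alone DFR entered the test. Between the Columbia arrays themselves the log2 ratios were 0.47 and -1.18. Without untreated Columbia the fitted values were 2.18 and -1.18. The first then had no untreated array of its own genotype and took the IAA difference from the mutants. The second was the ratio of the IAA and mock Columbia arrays alone. Without IAA-treated Columbia the second was 0.52, again with the IAA difference taken from the mutants.

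Whether IAA acted differently on DFR in the mutants was addressed by a response term. For arf6 arf8 alone the reference was arf6/arf6 ARF8/arf8 and Columbia together, which had IAA ratios of opposite sign. That term thus did not set the mutants against Columbia, and its difference in response was 0.66 ± 0.77 (SE, limma, adjusted p = 0.750). With a single response term for both mutants, a model chosen after the values were seen, it was 1.71 ± 0.28 (SE, limma, unadjusted p = 0.000114, adjusted p = 0.149). Neither passed over all probe sets, and limma called 0 probe sets (0%) with either term, with 1461 and 718 at an unadjusted p under 0.05. Being below untreated in Columbia and above it in both mutants was shared by 11.2% of all tested probe sets. Leaving out either the untreated or the IAA Columbia array brought the IAA difference of DFR to 1.00 ± 0.16, past the threshold (SE, limma, adjusted p = 0.0149), since the value then rests on the 2 mutant pairs.

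UGT78D2 had the smallest range of the 3 genes. Its intensity was 335.7 with IAA and 319.9 untreated in arf6 arf8, and 284.3 with IAA and 308.7 untreated in arf6/arf6 ARF8/arf8. In Columbia it was 287.1 with IAA, 402.9 with mock and 390.6 untreated. The mock and untreated Columbia arrays were thus the highest, and the 5 mutant or IAA-treated arrays lay together below them. In order of level, 1 of 6 steps was larger than the residual spread of 0.184, the one below untreated Columbia.

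None of the fitted differences of UGT78D2 passed the test. The IAA difference was -0.16 ± 0.13, and the genotype values were -0.03 ± 0.16 in arf6 arf8 and -0.18 ± 0.16 in arf6/arf6 ARF8/arf8 (SE, limma, adjusted p = 0.586, 0.913 and 0.592). Against the mock array IAA gave -0.35 ± 0.21 over the model and a log2 ratio of -0.49 between the Columbia arrays themselves (SE, limma, adjusted p = 0.654). Without untreated or IAA-treated Columbia the IAA difference of UGT78D2 was -0.02, and without either arf6 arf8 array -0.28. Without IAA-treated Columbia its value for IAA against mock was -0.07. For UGT78D2 the difference in IAA response of arf6 arf8 was 0.35 ± 0.23 (SE, limma, adjusted p = 0.577). A value that misses the threshold with 1 array per group does not show that the gene was unaffected.

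**Figure D2:**
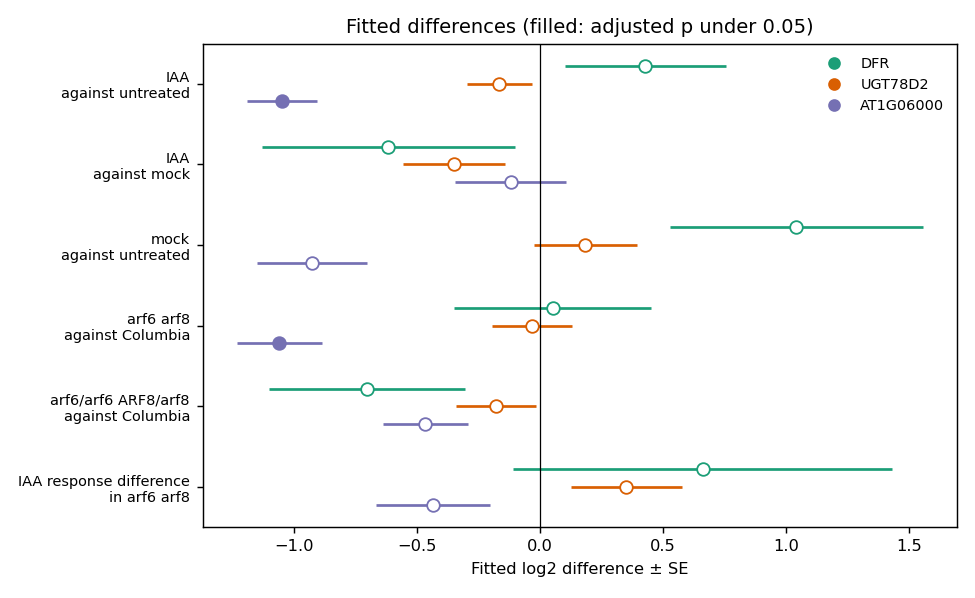
Fitted log2 differences (points) with standard errors (bars) of DFR, UGT78D2 and AT1G06000 in 6 comparisons, from the limma fit over 7 arrays, with filled points where the adjusted p was under 0.05. The filled points are AT1G06000 with IAA against untreated, at -1.05, and in arf6 arf8 against Columbia, at -1.06, and the bars of DFR are the widest.

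In each genotype AT1G06000 was lower with IAA than untreated. It read 563.4 with IAA against 1421.1 untreated in arf6 arf8, and 928 with IAA against 1959.2 untreated in arf6/arf6 ARF8/arf8. Columbia flowers gave 1449.3 with IAA, 1408.1 with mock and 2394.3 untreated. Within every genotype the IAA array was below the untreated one, although in Columbia the mock array was lower still. Over genotypes the groups overlapped, since IAA-treated Columbia was above untreated arf6 arf8. Being lower in all 3 pairs was shared by 20.8% of the tested probe sets.

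The fitted fall of AT1G06000 with IAA was 2.06-fold, or -1.05 ± 0.14 on the log2 scale (SE, limma, adjusted p = 0.0285). It was the 18th most negative of 13021 values, and the median over all probe sets was -0.01. By genotype the array ratios were 2.52-fold in arf6 arf8, 2.11-fold in arf6/arf6 ARF8/arf8 and 1.65-fold in Columbia. The difference in response of arf6 arf8 did not pass the test, at -0.43 ± 0.23 (SE, limma, adjusted p = 0.528). The call was lost with a floor at the 40th percentile (adjusted p = 0.0598), with no filter on dim probe sets (0.340), without either arf6 arf8 array (-0.90 ± 0.13, adjusted p = 0.167) and with untreated and mock arrays as one control (-0.86 ± 0.25, adjusted p = 0.546), all by limma. With no filter and without either arf6 arf8 array limma called 0 of all probe sets, and with one control 2. These losses were thus not particular to AT1G06000.

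A lower reading of AT1G06000 was also seen with the mock spray. In Columbia the mock array was 1.70-fold below the untreated array, and the IAA array 1.65-fold below it. The ratio of IAA over mock was 0.04 on the log2 scale. In the fit over all arrays IAA against mock was -0.12 ± 0.22 and mock against untreated -0.93 ± 0.22 (SE, limma, adjusted p = 0.939 and 0.120). A mock reading at least 1.5-fold below untreated was found for 4.32% of the tested probe sets. No mock array of a mutant was used, so the 2.52-fold and 2.11-fold ratios of the mutants cannot be divided into spray and IAA.

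**Figure D3:**
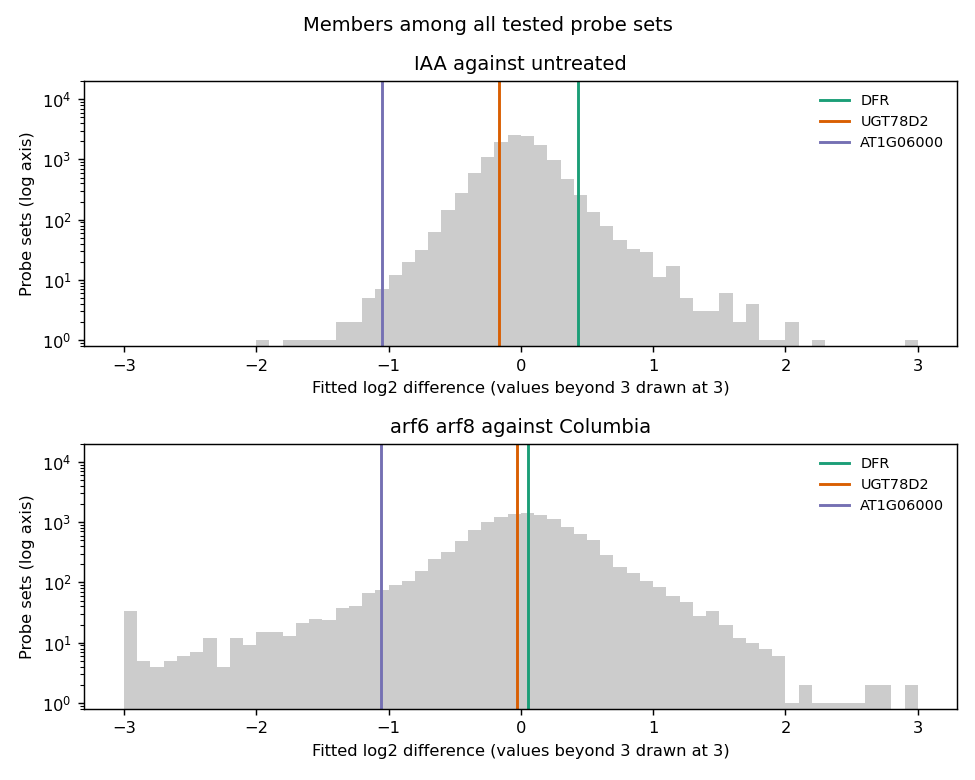
Histograms of the fitted log2 differences of 13021 probe sets (count on a log axis) for IAA against untreated and for arf6 arf8 against Columbia, with vertical lines at DFR, UGT78D2 and AT1G06000. AT1G06000 lies in the lower tail of both, with 0.131% and 2.90% of probe sets below it, and the tails are longer for the genotype.

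AT1G06000 also differed by genotype. Against Columbia, arf6 arf8 was 2.57-fold lower among IAA flowers and 1.68-fold lower among untreated flowers. The corresponding ratios of arf6/arf6 ARF8/arf8 against Columbia were 1.56-fold and 1.22-fold. Under both treatments the order was arf6 arf8 lowest, arf6/arf6 ARF8/arf8 next and Columbia highest, which was so for 11.7% of the tested probe sets. AT1G06000 fell by 1.06 ± 0.17 on the log2 scale in arf6 arf8 (SE, limma, adjusted p = 0.00959). For arf6/arf6 ARF8/arf8 the value was -0.47 ± 0.17 and did not pass (SE, limma, adjusted p = 0.197). It was -0.71 without untreated Columbia and -0.23 without IAA-treated Columbia. Both comparisons share the Columbia arrays. The arf6 arf8 call was lost without its IAA array (-0.84 ± 0.18) and with no filter (limma, adjusted p = 0.170). With no filter limma called 2 of all probe sets in that comparison.

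Of the 6 steps between neighbouring arrays in AT1G06000, 4 exceeded its residual spread of 0.217. Those that did not lay among mock-sprayed Columbia, untreated arf6 arf8 and IAA-treated Columbia, which read from 1408.1 to 1449.3. The lowest array carried both the double mutation and IAA, and the highest was untreated Columbia.

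Markers of anther cell types also differed between the genotypes. The 2 named of 5 tapetum markers summed to 1786.8 with IAA and 2332.5 untreated in arf6 arf8, to 1316.5 and 1775.9 in arf6/arf6 ARF8/arf8, and to between 676 and 913.5 in Columbia. The 3 named of 5 pollen markers summed to 620.6 and 768.4 in arf6 arf8, to 969.2 and 920.3 in arf6/arf6 ARF8/arf8, and to between 1318.2 and 1797 in Columbia. SWEET9, the only named one of 3 nectary markers, read 82.6 and 83.5 in arf6 arf8, 409.6 and 518.9 in arf6/arf6 ARF8/arf8, and from 1460.6 to 1781.9 in Columbia. In arf6 arf8 the pollen genes AT59 and ANX2 fell by 1.09 ± 0.17 and 1.48 ± 0.25 (SE, limma, adjusted p = 0.00815 and 0.0107). ANX2 was bright enough to be tested through Columbia arrays only, so its entry into the test depended on the genotype in which it was high. No named marker read 0 on any array, and 0 of 3 green tissue markers were named. Their part in the genotype difference of AT1G06000 was not tested.

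Other flavonoid genes were taken from lists of 67 entries for synthesis, glycosylation, acylation, transport and regulation, of which 13 lay on named probe sets and 7 were bright enough to be tested, the 3 genes above included. Among the other 4, 0 passed the test with IAA, where 1.08% of all probe sets passed in either direction, and all 4 had values below 0. Their median was -0.55, against -0.01 over all probe sets. Against the mock array 1 of the 4 had an IAA value below 0, with a median of 0.06, and for mock against untreated 3 of the 4 did, with a median of -0.48. In arf6 arf8 0 of the 4 passed, where 17.1% of all probe sets did in either direction, and in arf6/arf6 ARF8/arf8 1 of the 4 was called lower, against 1.62% of all probe sets. That gene, BAN, entered the test through Columbia arrays only, as given below.

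CHIL, which encodes a chalcone isomerase-like protein that aids the first steps of flavonoid synthesis, read 457.2 with IAA and 994.5 untreated in arf6 arf8. It read 525.5 and 1140.8 in that order in arf6/arf6 ARF8/arf8, and 750.1 with IAA, 528.7 with mock and 902.2 untreated in Columbia. As with AT1G06000, each sprayed array was below its untreated array, and here the sprayed and untreated readings did not overlap, as for 4.78% of the tested probe sets. The fitted IAA difference of CHIL was -0.84 ± 0.19 and its mock difference -1.06 ± 0.29 (SE, limma, adjusted p = 0.10 and 0.15).

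UGT78D1, a rhamnosyltransferase gene of the same subfamily as UGT78D2, read 948.9 with IAA against 1251.4 untreated in arf6 arf8 and 875.2 against 1159.4 in arf6/arf6 ARF8/arf8. Columbia flowers gave 992.7 with IAA, 957.9 with mock and 1286.9 untreated. The 4 sprayed arrays again lay below the 3 untreated ones. For UGT78D1 the log2 ratios of IAA over untreated were -0.40, -0.41 and -0.37 in the same order of genotypes, and -0.43 for mock. The fitted IAA difference was -0.39 ± 0.10 (SE, limma, adjusted p = 0.150).

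**Figure D4:**
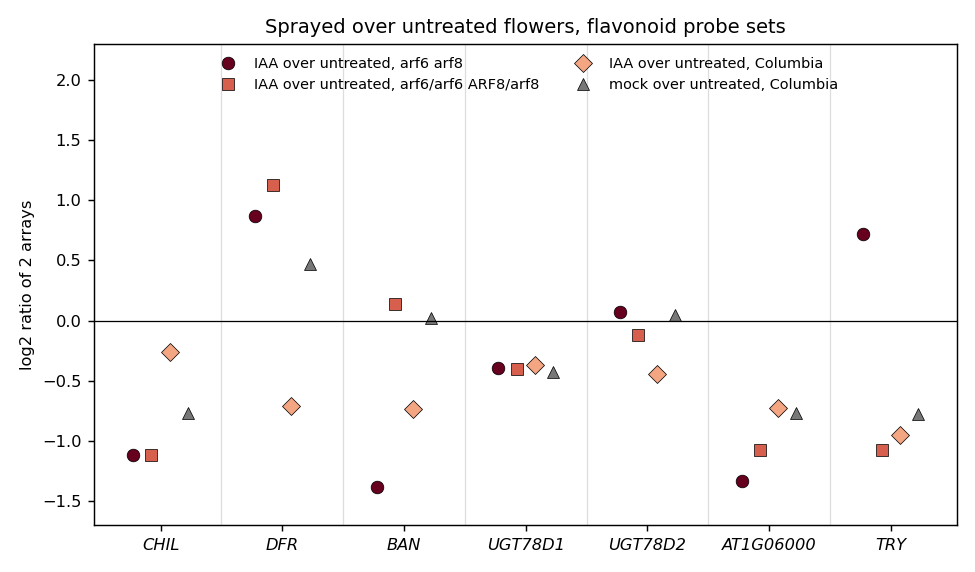
Log2 ratios of sprayed over untreated arrays for the 7 tested flavonoid probe sets, with IAA ratios in arf6 arf8, arf6/arf6 ARF8/arf8 and Columbia and the mock ratio in Columbia, each from 1 pair of arrays. All 4 ratios were below 0 for CHIL, UGT78D1 and AT1G06000, and the ratios of DFR ran from -0.71 to 1.13.

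BAN encodes anthocyanidin reductase, which acts after DFR on the way to proanthocyanidins. It read 35.7 with IAA and 169.5 untreated in arf6 arf8, 71.3 and 25.2 in arf6/arf6 ARF8/arf8, and 170.4 with IAA, 287.7 with mock and 283.3 untreated in Columbia. All mutant readings were thus below those of Columbia, as for 11% of the tested probe sets, and 2 of them were below the floor. The margin was narrow, with 169.5 in untreated arf6 arf8 against 170.4 in IAA-treated Columbia. BAN fell by 1.69 ± 0.32 in arf6/arf6 ARF8/arf8 on the floored log2 scale and had -1.07 ± 0.32 in arf6 arf8 (SE, limma, adjusted p = 0.0441 and 0.0620). The untreated arf6/arf6 ARF8/arf8 array was the lowest for BAN as for DFR.

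TRY, which encodes a small MYB protein that represses epidermal hair formation, was the only tested one of 25 regulator entries. It read 274.8 with IAA and 166.5 untreated in arf6 arf8, 215.1 and 453.7 in arf6/arf6 ARF8/arf8, and 187.9 with IAA, 212 with mock and 363.2 untreated in Columbia. The IAA array was the higher one in arf6 arf8 alone. The fitted IAA difference of TRY was -0.44 ± 0.33 (SE, limma, adjusted p = 0.558), and the response difference of arf6 arf8 was 1.74 ± 0.19 (SE, limma, adjusted p = 0.405).

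The other named entries were too dim to be tested. UGT78D3 ran from 13 to 68.5, AT4G14090 from 5.9 to 27.7, UF3GT from 21.9 to 95.4, AT5G54010 from 61.2 to 174.5, the acyltransferase gene AT5MAT from 29 to 64.7 and the bZIP gene HYH from 3.5 to 66.7. For UGT78D3 and AT4G14090 the highest reading was the mock array, the one with the raised low end. UGT78D3 and AT5G17040 stand just before UGT78D2 in the RefSeq gene order, and AT5G17040 ran from 7.1 to 44.6.

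SHT, which encodes the tapetal spermidine hydroxycinnamoyl transferase of pollen-coat phenolics, was the only tested gene of 6 in that list. SHT read 765 with IAA and 819.7 untreated in arf6 arf8, 530.6 and 895.8 in arf6/arf6 ARF8/arf8, and 365.6 with IAA, 416.4 with mock and 294.1 untreated in Columbia. Every mutant array was above every Columbia array, as for 14.4% of the tested probe sets. SHT rose by 1.27 ± 0.24 in arf6 arf8 and had 1.07 ± 0.24 in arf6/arf6 ARF8/arf8 (SE, limma, adjusted p = 0.0158 and 0.0695). Both tapetum markers rose in arf6 arf8 as well, AT5G07230 by 1.48 ± 0.24 and AMS by 0.85 ± 0.19 (SE, limma, adjusted p = 0.00901 and 0.0275). Of all probe sets 9.14% were called higher in that comparison. AMS was bright enough to be tested through mutant arrays only, so its entry into the test depended on the genotypes in which it was high.

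AT1G06000 and UGT78D2 were also set beside the wider UGT family, enzymes that transfer sugars from UDP-sugars to small molecules. Of 47 probe sets with a UGT symbol 15 were tested, UGT78D2 among them. With IAA 0 of the other 14 passed, where 1.08% of all probe sets did, and their fitted values ran from -0.67 to 0.62. In arf6 arf8 2 of the 14 were called higher and 1 lower, against 9.14% and 7.96% of all probe sets. UGT85A3 was 3.55-fold lower, UGT85A5 2.64-fold higher and UGT71B1 1.46-fold higher (limma, adjusted p = 0.000573, 0.00426 and 0.0418). UGT85A3 read 109.9 with IAA and 88.4 untreated in arf6 arf8, 227.4 and 216.9 in arf6/arf6 ARF8/arf8, and from 340.4 to 438.2 in Columbia. UGT85A5, a close relative, read 304.4 and 314.9 in arf6 arf8, 252.4 and 174.4 in arf6/arf6 ARF8/arf8, and from 97.7 to 183.1 in Columbia. Readings of arf6 arf8 and Columbia did not overlap for either gene, and 19.7% of the tested probe sets lay wholly below Columbia in this way and 25% wholly above. Such relatives can share probe signal, which was not examined here. UGT85A3 was bright enough to be tested through Columbia arrays only, and UGT85A5 through mutant arrays only. The entry of these genes into the test thus depended on the genotype in which they were high.

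**Figure D5:**
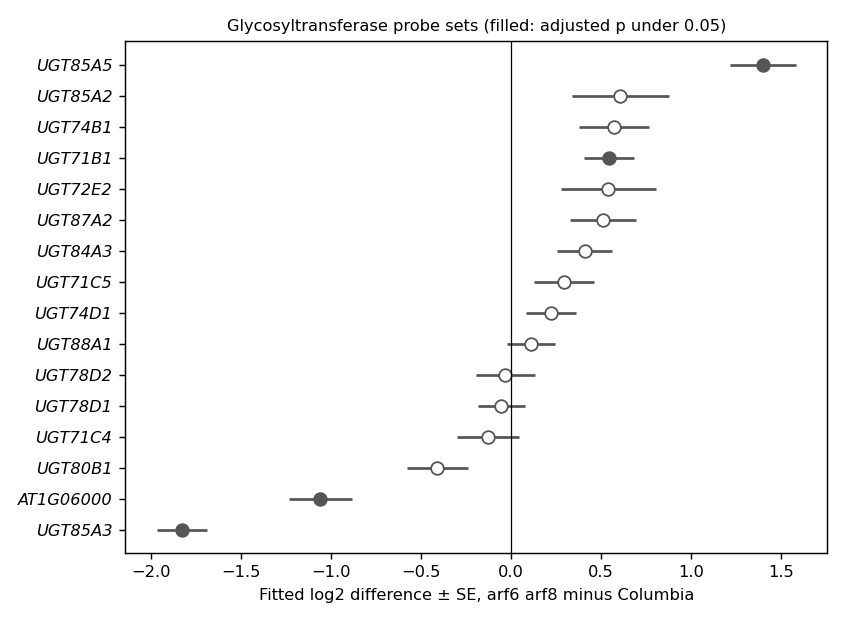
Fitted log2 differences of arf6 arf8 minus Columbia (points) with standard errors (bars) for AT1G06000 and the 15 tested probe sets with a UGT symbol, filled where the adjusted p was under 0.05. UGT85A5 and UGT71B1 lie above 0, and UGT85A3 and AT1G06000 below it, at -1.83 and -1.06.

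The 3 genes did not run in parallel over the arrays. Pearson's r of the log2 readings over the 7 arrays was 0.69 for DFR and UGT78D2, -0.33 for DFR and AT1G06000 and 0.28 for UGT78D2 and AT1G06000. CHIL had r = 0.80 with AT1G06000 and -0.72 with DFR. These values describe 7 arrays that share genotypes and treatments.

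Among 6937 other tested probe sets with 1 gene, those most like AT1G06000 were AT4G24830, AT1G10490 and YAO, with r of 0.993, 0.992 and 0.988, and 49 probe sets exceeded 0.95. AT4G24830 read 817.4 with IAA and 1234 untreated in arf6 arf8, against 1219.8 with IAA and 1458.7 untreated in Columbia, a smaller span than that of AT1G06000. The profiles most like DFR were those of AT4G31790, AT3G18280 and AT3G19240, with r of 0.973, 0.972 and 0.955. For UGT78D2 they were AT1G69030, AT1G77810 and AT1G78930, with r of 0.982, 0.981 and 0.955. Only 4 probe sets exceeded 0.95 with DFR and 5 with UGT78D2.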

How the data were processed

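Per the submitters' processing notes the arrays were processed with MAS5, and the deposited values are linear intensity signals. Each array had a 2% trimmed mean of 500.0, so the authors' scaling was kept. Per the labels' protocols about 7 µg of total RNA was labelled for an array. Neither the version of MAS5 nor its detection calls were used here.

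Affymetrix control probe sets (64) were left out. Intensities were floored at the 25th percentile (64.9) and taken to log2, and probe sets were tested where the highest of 7 arrays exceeded the 50th percentile (248.1). Genotype and treatment were fitted as additive terms with limma 3.58.1 in R 4.3.3 (lmFit, eBayes), with 2 residual degrees of freedom and 4.945 from the prior. P-values were adjusted by Benjamini-Hochberg over all 13021 probe sets, with a threshold of 0.05. The response term left 1 residual degree of freedom. Mock p-values rest on 1 array and assume that it varies like the others. The number of arrays limits the precision.

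Of the probe sets 13513 carried 1 gene in the platform annotation of GEO, 503 several and 8730 none listed, and 13436 were matched to the RefSeq table of TAIR10.1, used for names and gene order only. Genes on the remaining probe sets were not named. The genes and lists were chosen with earlier results of these data known. Named were the 3 genes, list entries past the threshold or with the largest differences, the 3 profiles with the highest correlation to each gene, and UGT genes past the threshold.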

Additional observations from a re-analysis of the deposited data

Results flagged for a closer look

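The ratios of IAA over untreated had opposite signs for DFR in the mutants and in Columbia. The log2 ratio of IAA over untreated was 0.87 in arf6 arf8 and 1.13 in arf6/arf6 ARF8/arf8, against -0.71 in Columbia. For arf6 arf8 the difference from the other genotypes together was tested and did not pass (0.66 ± 0.77, limma, adjusted p = 0.750). For arf6/arf6 ARF8/arf8 alone it was not tested. With a single term for both mutants against Columbia, chosen after the values were seen, the difference was 1.71 ± 0.28 and did not pass (SE, limma, adjusted p = 0.149). UGT78D2 had a log2 ratio of 0.07 in arf6 arf8, -0.12 in arf6/arf6 ARF8/arf8 and -0.44 in Columbia. Here too arf6 arf8 was tested against the other genotypes together and did not pass (0.35 ± 0.23, limma, adjusted p = 0.577), and its difference from Columbia alone was not tested. Each ratio is that of 1 pair of arrays.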

How the results depend on the processing

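No pairing of replicates was possible because the labels give no replicate numbers and every group holds 1 array. The additive terms already set IAA against untreated within the 3 genotypes. The 3 genes were refitted under other floors, filters, scalings and variance models and without each array in turn, and 201 of 222 refitted values kept direction and side of the threshold. Most of these were uncalled values that stayed uncalled, and some could not change, such as IAA against untreated without the mock array. The call of AT1G06000 was lost in 5 of 15 refits with IAA and in 2 of 14 in arf6 arf8, those without an arf6 arf8 array included. DFR and UGT78D2 did not reach the filter at the 70th percentile. Among the refits that leave out an array, the response term has the one without the mock array only. Its alternatives were chosen after seeing the data.

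AT1G06000 with IAA lost its call with the higher floor, at the 40th percentile (-1.05), with no filter (-1.05) and with untreated and mock as one control (-0.86); in arf6 arf8 it lost it with no filter (-1.06). Leaving out one array at a time, its value ran from -1.21 to -0.90 for IAA against untreated, from -0.44 to 0.04 for IAA against mock and from -1.30 to -0.82 for arf6 arf8 against Columbia. For DFR the ranges were 0.08 to 1.00 for IAA against untreated, -1.18 to 0.52 for IAA against mock, 0.47 to 2.18 for mock against untreated, -0.80 to 0.91 for arf6 arf8 and -1.56 to 0.15 for arf6/arf6 ARF8/arf8 against Columbia. For UGT78D2 they were -0.24 to 0.18 for arf6 arf8, where the sign turned without untreated Columbia (0.18) or untreated arf6 arf8 (0.14), and -0.39 to 0.03 for arf6/arf6 ARF8/arf8. For AT1G06000 in arf6/arf6 ARF8/arf8 the range was -0.71 to -0.23, and for UGT78D2 -0.28 to -0.02 for IAA against untreated and -0.49 to -0.07 for IAA against mock. With a floor at the 40th percentile DFR had 0.04 for IAA against untreated and -0.20 for arf6/arf6 ARF8/arf8. The cause of these shifts was not tested.

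Over all probe sets limma called 141 with IAA against untreated and from 0 to 380 under the alternatives, 23 and from 0 to 844 with IAA against mock, and 98 and from 0 to 906 with mock against untreated. It called 2227 and from 2 to 2833 in arf6 arf8, and 360 and from 1 to 822 in arf6/arf6 ARF8/arf8. Where 0 were called, between 1341 and 2533 had an unadjusted p under 0.05. For IAA against untreated, 0 were called with no filter and without either arf6 arf8 array, and 2 with untreated and mock as one control. The 2 called in arf6 arf8 were with no filter.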
